A study of Mus musculus with 2 samples.

Results

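Ccr2-positive Fcrls-low macrophages of the dorsal root ganglion (DRG) were taken as all cells that passed a gate on raw unique molecular identifiers (UMIs, one per captured transcript). C1qa, C1qb and C1qc had to hold at least 0.5% of a cell's UMIs, Ccr2 at least 2 UMIs and Fcrls at most 2 UMIs, and Ifit1, Ifit2, Ifit3, Isg15 and Rsad2 had to stay under 0.15% of UMIs. The gate kept 289 of 2668 cells. The members were thus chosen by measured values, those of C1qa, C1qb, C1qc, Ccr2, Fcrls and the 5 interferon-induced genes, so the levels of those 10 genes are given as a description and were not tested.

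The study sorted CD45+ DAPI- cells from the DRGs of naive wild-type BALB/cAnNRj mice and ran them in 1 lane of the 10x Genomics 3′ v3 assay. Mice were perfused, and DRGs were digested with collagenase, dispase and DNase at 37C and cleared of myelin on Percoll, so all groups share the warm digestion. The study gives a pool of cervical, thoracic and lumbar DRGs for its flow cytometry, and the levels used for sequencing are not stated. Antibody hashtags marked each of 3 male and 3 female animals, none carried a transgene or a deletion, and no treatment was applied. The 2668 cells came from the 3 males, which serve as replicates here, and 1073 further cells of the lane carried a female hashtag. The methods of the study give a lower limit of 7 weeks for the age of its mice, and the age of these 6 animals is not stated further.

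Since every replicate rests on its hashtag, the barcode of each antibody is shown as the submitters listed it.

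mouse 1 (hashtag 2): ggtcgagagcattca
mouse 2 (hashtag 3): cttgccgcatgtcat
mouse 3 (hashtag 5): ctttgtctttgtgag
female mouse 1 (hashtag 1): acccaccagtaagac
female mouse 2 (hashtag 4): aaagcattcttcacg
female mouse 3 (hashtag 6): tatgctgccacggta

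Mouse 1 gave 481 cells with 4239463 UMIs, mouse 2 gave 772 cells with 5656097 UMIs and mouse 3 gave 1415 cells with 13508078 UMIs. Xist, which is transcribed from the inactive X chromosome, had 1, 12 and 11 UMIs in the male mice and 1487, 1195 and 1353 UMIs in the female mice. The Y-linked gene Ddx3y had 217, 368 and 773 UMIs in the males and 4, 1 and 2 UMIs in the females, so the hashtags and the labelled sex matched in all 6 animals.

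Ccr2 encodes the receptor for Ccl2 and related chemokines, and it is known for guiding classical monocytes out of the bone marrow and into tissue. Monocytes that settle in a tissue can mature into macrophages, losing Ly6c and gaining complement C1q and the receptors of resident cells. Fcrls encodes an Fc receptor-like scavenger protein found on microglia and on some other resident macrophages. Type 2 conventional dendritic cells (cDC2) also carry Ccr2, present antigen on MHC class II and share several surface lectins with macrophages.

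By the gate itself, Ccr2 stood at a median of 4 UMIs per cell (range 2 to 20), Fcrls at 1 (range 0 to 2) and C1q at 1.49% of UMIs (range 0.529% to 3.01%). Of the 289 cells, 63 (21.8%) had exactly 2 Ccr2 UMIs, and 47 cells lay just outside with 1 Ccr2 UMI and at most 2 Fcrls UMIs. On the other axis 67 cells (23.2%) had exactly 2 Fcrls UMIs and 42 lay just outside with 3. Only 4 members had C1q between 0.5% and 0.7% of UMIs, and 4 cells with C1q between 0.3% and 0.5% met the other limits. The C1q limit therefore passed through a thin part of the distribution, while the Ccr2 and Fcrls limits cut through a continuous one. Tnip3, a gene outside the gate, was found at 162 CPM (a gene's UMIs divided by all UMIs of the same cells, on a fixed scale) in members with 2 Ccr2 UMIs and at 188 CPM in the cells just outside with 1. It fell to 46.3 CPM in the 157 macrophages with neither Ccr2 nor more than 2 Fcrls UMIs. Across the Fcrls limit Tnip3 stood at 124 CPM in members with 2 UMIs and at 78.5 CPM in cells with 3. These CPM come from pooled cells and carry no replicate error.

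**Figure D1:**
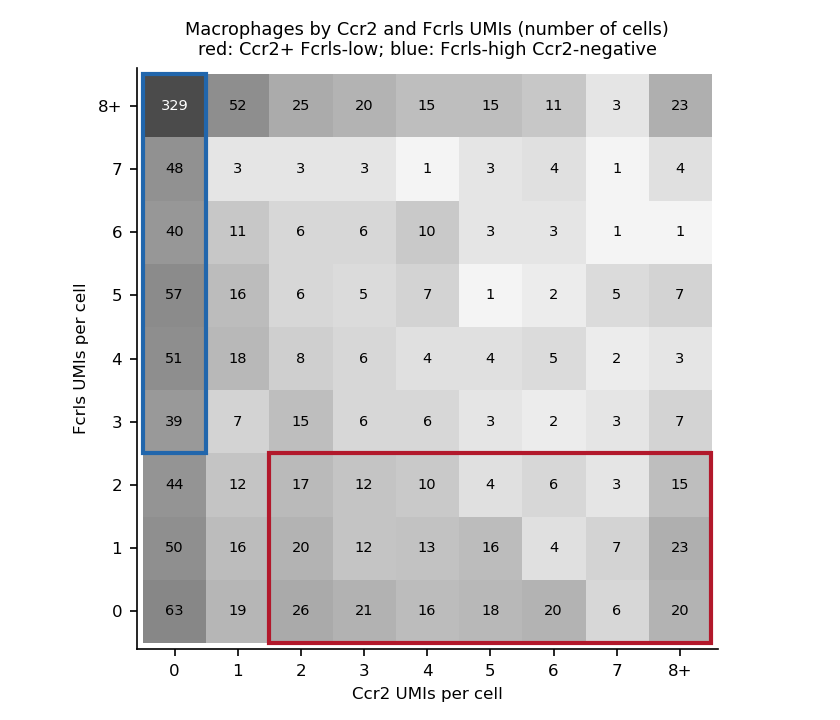
Macrophages of the 3 male mice counted by their UMIs of Ccr2 and Fcrls, with the last row and column holding cells of 8 UMIs or more. The outlined area holds the 289 members, and cells lie directly next to it on the Ccr2 and the Fcrls side.

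The macrophage label was checked against genes that the gate had not used. The macrophage genes Csf1r, which encodes the receptor for macrophage colony-stimulating factor, and Adgre1, which encodes F4/80, were present in all 3 mice. Csf1r stood at 901, 868 and 837 CPM in mice 1, 2 and 3, and Adgre1 at 203, 272 and 237 CPM. Fcgr1 (CD64) reached a mean of 244 CPM in members and 41.0 CPM in cDC2. The monocyte gene Ly6c2 was near 0, with a mean of 4.12 ± 1.46 CPM (SD, n = 3) against 1232 ± 138 CPM in monocytes. Plac8, which defines the monocyte gate, averaged 4.17 ± 3.83 CPM in members. Of the dendritic cell genes, Flt3, a growth factor receptor of dendritic cells and their precursors, had 5 UMIs in all members together, and Zbtb46, a transcription factor of conventional dendritic cells, had 3. Cd209a, the lectin that defines the cDC2 gate, averaged 43.6 ± 19.4 CPM in members and 1819 ± 287 CPM in cDC2.

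Ccr2+ Fcrls-low macrophages formed 23.5% of macrophages in mouse 1, 20.2% in mouse 2 and 18.0% in mouse 3, where macrophages are all 1484 cells over the C1q limit. The mean was 20.6% ± 2.75 (SD, n = 3), and the pooled share was 19.5% with an exact Clopper-Pearson 95% interval of 17.5 to 21.6%. As a share of all sorted CD45+ cells they made up 8.94%, 13.6% and 9.96%, with a mean of 10.8% ± 2.45 (SD, n = 3). These intervals cover counting error only, and shares can be set by digestion and sorting. The 3 male mice contributed 43, 105 and 141 members with 375055, 802029 and 1327615 UMIs, so mouse 1 was measured with the least precision.

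Unsupervised clustering placed 239 members (82.7%) in 1 cluster of 585 cells, which was led by Tnfsf9, Cxcl14, Slamf9, Bcl2a1a and Col14a1. Another 29 (10.0%) fell in the cluster of 720 cells that held 448 of 564 Fcrls-high macrophages and was led by Ccl24, Pla2g2d and Egfl7. Members therefore shared most of their cluster with macrophages that the gate left out.

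For comparison, Fcrls-high Ccr2-negative macrophages were those with the same C1q and interferon limits, at least 3 Fcrls UMIs and no Ccr2 UMI (564 cells). Monocytes (87 cells) had C1q under 0.5% of UMIs, at least 2 Plac8 UMIs and at least 1 Csf1r UMI. Dendritic cells of type cDC2 (42 cells) had C1q under 0.5% and at least 2 Cd209a UMIs. Median UMIs per cell were 8341 in members, 8865.5 in Fcrls-high macrophages, 10717 in monocytes and 13972.5 in cDC2. UMIs were summed per mouse and class, and the sums of the 3 mice were compared with the quasi-likelihood test of edgeR, adjusted by the Benjamini-Hochberg method over all genes tested, which is the test behind every adjusted p given here. The numbers of cells and UMIs differ between classes, and all comparisons share the sums of the 289 members.

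Besides Ccr2, 6 genes had been proposed as markers of these cells from the same male data, so their male values against Fcrls-high macrophages are a description. Ccr2 itself stood at 595, 696 and 547 CPM in mice 1, 2 and 3, at 840, 677 and 673 CPM in cDC2 and at 1053, 1178 and 984 CPM in monocytes. All 3 members' values of Ccr2 lay below those of monocytes, and they overlapped with cDC2.

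Tnip3 encodes a ubiquitin-binding protein that restrains NF-kB signalling after Toll-like receptor engagement. Members held 203, 196 and 232 CPM in mice 1, 2 and 3, while Fcrls-high macrophages held 0, 6.18 and 11.9 CPM. Monocytes reached 18.0, 70.4 and 25 CPM, and cDC2 537, 765 and 732 CPM. In every mouse Tnip3 was thus highest in cDC2, next in Ccr2+ Fcrls-low macrophages and lower in both other classes, without overlap between these 3 levels. Relative to monocytes Tnip3 was raised by 3.15 ± 0.27 on the log2 scale (SE, adjusted p = 2.64e-08, and 2.55 with members of at least 1% C1q), and relative to cDC2 it fell by 1.48 ± 0.16 (adjusted p = 6.73e-06). Against Fcrls-high macrophages the male log2 fold change was 4.79 (4.58 to 5.55 with 1 mouse left out).

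Spp1, which encodes the secreted phosphoprotein osteopontin, held 109, 125 and 142 CPM in members, 11.3, 34.6 and 38.9 CPM in Fcrls-high macrophages and 50.5, 38.4 and 51.6 CPM in monocytes. In cDC2 it held 288, 332 and 177 CPM. Members lay above monocytes (log2 1.75 ± 0.21, adjusted p = 2.18e-06) and below cDC2 (fell by 0.82 ± 0.22, adjusted p = 0.0109). The difference from cDC2 lost its call without mouse 1 (adjusted p = 0.0831) or mouse 2 (adjusted p = 0.148), and no direction is drawn from it.

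Tnip3, Spp1 and H2-Eb1 were higher in members than in both Fcrls-high macrophages and monocytes in every male mouse. The promoters of Tnip3 and Spp1, which held motif matches, are shown, a choice made after the matches had been seen, and the window of H2-Eb1 held none. Each is a window of 300 bases around a RefSeq transcription start (GRCm38.p6, plus strand), that of Tnip3 at chr6:65590148-65590447 and that of Spp1 at chr5:104434861-104435160. Capitals mark matches to the core PU.1 motif GAGGAAGT, to the TATA box TATAAA and to the degenerate NF-kB consensus on either strand. The form of the NF-kB consensus was chosen after the windows had been seen.

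Tnip3: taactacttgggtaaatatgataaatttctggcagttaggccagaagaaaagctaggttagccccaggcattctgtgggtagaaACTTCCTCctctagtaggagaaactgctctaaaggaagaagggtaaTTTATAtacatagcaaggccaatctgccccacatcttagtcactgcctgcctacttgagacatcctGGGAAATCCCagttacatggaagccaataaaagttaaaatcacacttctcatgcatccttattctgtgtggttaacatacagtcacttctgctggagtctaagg
Spp1: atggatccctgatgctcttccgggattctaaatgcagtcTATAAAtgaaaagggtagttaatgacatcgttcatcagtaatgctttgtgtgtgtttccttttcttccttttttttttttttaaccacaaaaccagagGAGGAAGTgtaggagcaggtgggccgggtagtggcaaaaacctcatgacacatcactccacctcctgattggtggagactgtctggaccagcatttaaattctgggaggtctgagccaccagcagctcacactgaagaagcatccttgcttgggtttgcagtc

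The PU.1 core occurred in 3.20% and the TATA box in 13.6% of 32851 promoter windows of this length, on either strand. The NF-kB consensus occurred in 8.46% of them, and in the Tnip3 window it matched as GGGAAATCCC. The Spp1 window shown held the PU.1 core and the TATA box only. The window of Lgals3 held the NF-kB consensus, and those of Ccr2 and H2-Eb1 and the second window of Spp1 held none of the 3 motifs, which says only that these letters are absent there. A match describes the letters and does not show binding.

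Lsp1 encodes an actin-binding protein of leukocytes involved in their migration. Members held 165, 213 and 160 CPM against 24.3, 8.65 and 26.6 CPM in Fcrls-high macrophages, 1053, 864 and 931 CPM in monocytes and 1542, 1787 and 1511 CPM in cDC2. Lsp1 lay between Fcrls-high macrophages and both other classes in every mouse, lower than in monocytes by a log2 value of -2.03 ± 0.15 (adjusted p = 2.21e-09) and lower than in cDC2 by -2.97 ± 0.15 (adjusted p = 2.70e-09).

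Cd52, a small glycoprotein of the leukocyte surface, followed the same order. It held 773, 724 and 849 CPM in members, 201, 198 and 259 CPM in Fcrls-high macrophages, 1620, 2214 and 1994 CPM in monocytes and 1913, 2518 and 2066 CPM in cDC2. The distance to monocytes (-0.93 ± 0.13, adjusted p = 1.12e-05) and to cDC2 (-1.27 ± 0.13, adjusted p = 4.02e-06) was small beside that of Lgals3.

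Lgals3 encodes galectin-3, a lectin abundant in monocytes and activated macrophages. It held 61.3, 103 and 97.2 CPM in members and 27.5, 15.4 and 31.0 CPM in Fcrls-high macrophages. Monocytes held 2136, 2138 and 2282 CPM and cDC2 1030, 900 and 917 CPM. The level of members was thus far nearer to that of Fcrls-high macrophages than to that of monocytes (-4.21 ± 0.15, adjusted p = 2.94e-13) or cDC2 (-3.18 ± 0.17, adjusted p = 2.94e-09).

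H2-Eb1, the beta chain of the MHC class II molecule I-E, behaved differently. Members held 10060, 10987 and 9290 CPM, Fcrls-high macrophages 6046, 5841 and 3582 CPM, monocytes 144, 896 and 446 CPM and cDC2 9342, 12528 and 10673 CPM. Members lay above monocytes (log2 4.82 ± 0.34, adjusted p = 1.53e-09) and overlapped with cDC2 (0.10 ± 0.13, adjusted p = 0.641). Against Fcrls-high macrophages the male log2 fold changes of Lsp1, Cd52, Lgals3, H2-Eb1 and Spp1 were 3.30, 1.96, 2.00, 1.10 and 2.12, where Lsp1 ranged from 2.79 to 3.94 with 1 mouse left out.

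**Figure D2:**
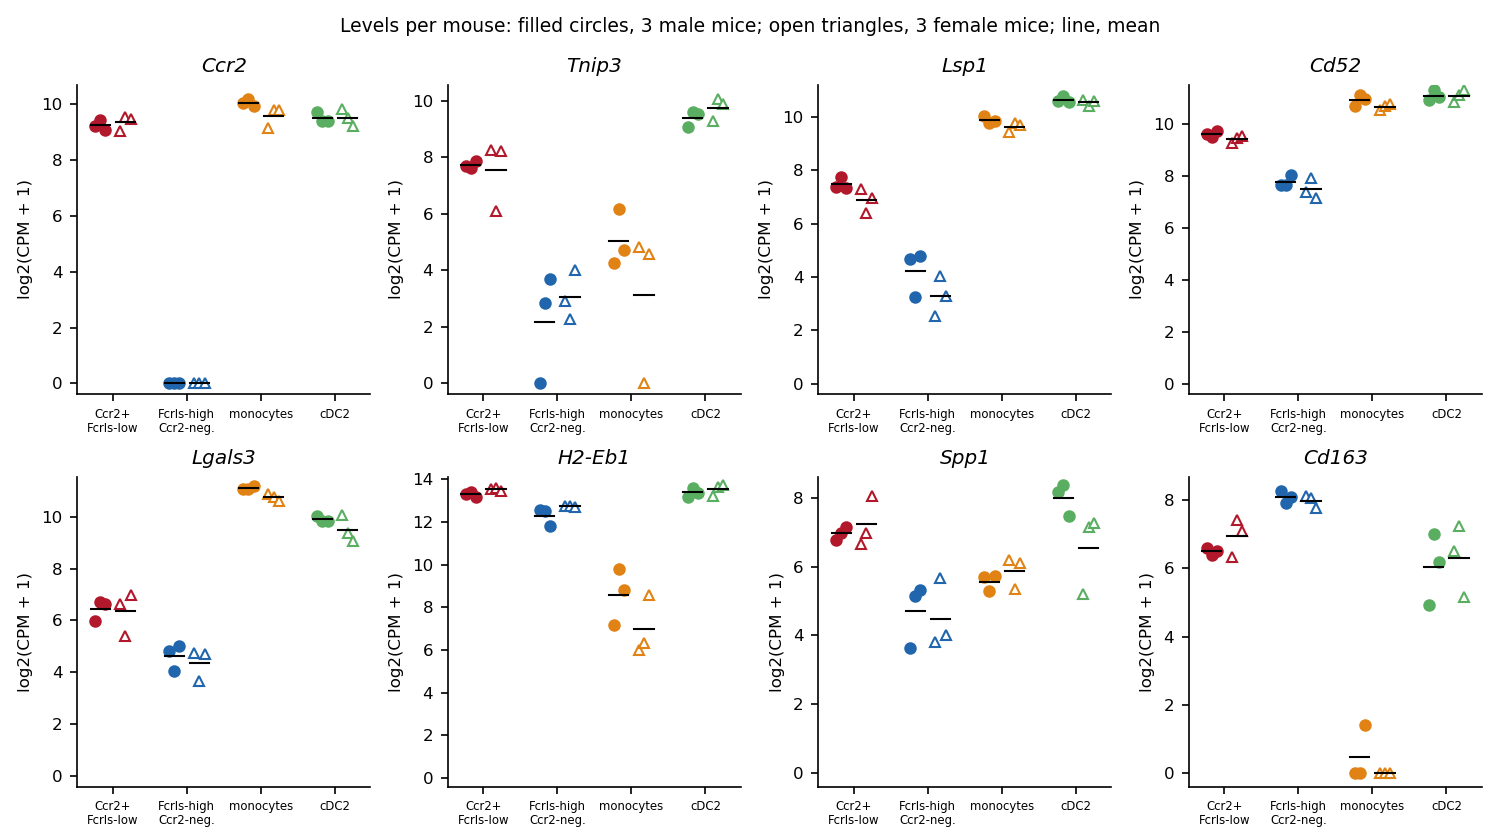
Level of the 7 markers and of Cd163 as log2 CPM in Ccr2+ Fcrls-low macrophages, Fcrls-high Ccr2-negative macrophages, monocytes and cDC2. Each point is a mouse, with filled circles for male and open triangles for female mice, and the line is the mean. In male mice Tnip3 and Spp1 of members lie above Fcrls-high macrophages and monocytes. Lsp1, Cd52 and Lgals3 of male members lie between Fcrls-high macrophages and the other classes.

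Compared with Fcrls-high macrophages of the same mice, Ccr2+ Fcrls-low macrophages had more transcripts of MHC class II and of S100, galectin and annexin genes and fewer of the listed resident macrophage genes, such as Cd163 and Igf1. Of 6962 genes tested, 364 (5.23%) were higher and 258 (3.71%) lower. Without mouse 1, 2 or 3 the sum of 622 calls came to 349, 360 or 385. The median log2 fold change of all genes was -0.0049.

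Resident macrophage genes were lower as a group, with 14 of 14 tested members of the list called lower and a median log2 fold change of -1.34. Cd163, the scavenger receptor for haptoglobin-haemoglobin complexes, held 96.0, 83.5 and 89.6 CPM in members and 308, 238 and 270 CPM in Fcrls-high macrophages (-1.47 ± 0.15, adjusted p = 2.38e-06). The groups did not overlap, but Cd163 remained present in the members. Mrc1, the mannose receptor CD206, was lower by -1.20 ± 0.13 (adjusted p = 9.97e-06) and still held 480, 761 and 639 CPM. Maf, a transcription factor of resident macrophages (-1.25), Folr2, a folate receptor (-1.19), Stab1, a scavenger receptor (-1.54), the TAM receptor ligand Gas6 (-1.43) and the platelet factor Pf4 (-1.45) were lower as well. Lyve1, a hyaluronan receptor, was lower by -2.14 (adjusted p = 0.00425, -3.19 to -1.94 with 1 mouse left out), but with members taken from 1 Ccr2 UMI upwards the value was -1.13 and the call was lost (adjusted p = 0.172).

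The 10 genes with the strongest decrease were led by the chemokine Ccl8, with 40.0, 8.73 and 34.6 CPM in members and 559, 361 and 640 CPM in Fcrls-high macrophages (-4.15 ± 0.29, adjusted p = 3.78e-08). Others were Gpx3, a secreted glutathione peroxidase (-4.07, -5.57 to -3.61 with 1 mouse left out), Egfl7, a secreted EGF-like protein best known from endothelium (-3.65), the eosinophil chemoattractant Ccl24 (-3.13) and the growth factor Igf1 (-2.85). Igf1 stood at 18.7, 31.2 and 21.1 CPM against 185, 204 and 179 CPM. Clec4n, the lectin dectin-2 (-2.83), the ferritinophagy receptor Ncoa4 (-2.05), the peptide transporter Slc15a2 (-1.98), the secreted phospholipase Pla2g2d (-1.97) and the NAD-consuming enzyme Cd38 (-2.25) completed the group. Of these, Cd38 lost its call without mouse 1 (adjusted p = 0.0624) and ranged from -2.92 to -2.02 with 1 mouse left out. Several of these differences were larger in members without any Fcrls UMI. There Ccl8 stood at -5.78, Igf1 at -4.06, Ccl24 at -3.72, Clec4n at -3.43, Cd38 at -3.16, Pla2g2d at -3.10, Slc15a2 at -2.61 and, of the resident list, Folr2 at -1.93.

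In the other direction, 8 of 8 MHC class II genes were called higher, by 0.73 to 1.15 with a median of 1.01. All 9 genes of the list, tested or not, together held 7.86, 8.64 and 7.29% of UMIs in members and 5.02, 5.26 and 3.21% in Fcrls-high macrophages. H2-DMb1, part of the chaperone that loads peptide (1.12 ± 0.18, adjusted p = 0.000433), H2-Ab1 (1.01) and the invariant chain Cd74 (0.89) are examples. Genes of the H2 family are similar in sequence, and reads may be shared between them.

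Of 12 tested genes for S100 proteins, galectins, annexins and related cytoskeletal proteins, 11 were higher, with a median of 1.58. S100a4, a calcium-binding protein of motile cells, held 56.0, 111 and 64.0 CPM against 4.86, 1.85 and 7.16 CPM (4.05 ± 0.34, adjusted p = 2.34e-07, 3.34 to 5.09 with 1 mouse left out). The related S100a6 rose by 2.10, the intermediate filament gene Vim by 1.79, the actin-sequestering Tmsb10 by 1.70, Anxa2 by 1.47, S100a10 by 1.11 and S100a11 by 1.07. Lgals1 was the exception (0.12 ± 0.13, adjusted p = 0.690).

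Migration genes were called higher in 5 of 10 (median 0.55), among them Lsp1, the integrin regulator Cytip (1.77), the adhesion receptor Adgre5 (1.95) and the actin regulator Coro1a (0.99). The beta 2 integrin Itgb2 rose by 0.66 (adjusted p = 0.0168), which was lost without mouse 1 (adjusted p = 0.118) or mouse 2 (adjusted p = 0.154).

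Among the strongest increases outside these lists were Tnfsf9, the ligand of the costimulatory receptor 4-1BB (2.20), the anti-apoptotic Bcl2a1a (1.99) and Gm5150 (3.14). Sirpb1b (4.57 ± 0.40, adjusted p = 4.24e-07) and Sirpb1c (4.97 ± 0.39, adjusted p = 1.37e-07), signal-regulatory receptors paired with activating adaptors, were seen together with Gm5150, and Sirpb1a had 38 UMIs in members and 3 in Fcrls-high macrophages, a ratio of 26.1 (8.30 to 132, counting interval). These genes have near-identical copies, as has Bcl2a1a, so the division of reads among them is uncertain. The paired receptors Klra2 (2.89, and 3.60 in members without any Fcrls UMI) and Clec4b1 (1.94), the lysozyme Lyz1 (2.62, near-identical to Lyz2) and the tetraspanin Cd9 (1.70) rose too. Of the 12 tested genes of the paired receptor list, which holds the Sirpb1 genes, Klra2 and Clec4b1, 6 were higher and 2 lower (median 0.29). Clec4n and the inhibitory Fc receptor Fcgr2b (-0.44) were the genes called lower. The summed share of the list was lower in members in each mouse, at 0.179, 0.189 and 0.199% of UMIs against 0.218, 0.247 and 0.232% in Fcrls-high macrophages. With 1 mouse left out Sirpb1b ranged from 4.23 to 6.14, Sirpb1c from 4.66 to 5.79 and Klra2 from 2.64 to 3.89. Sirpb1a, Sirpb1b, Sirpb1c, Klra2, Clec4b1 and Lyz1 were chosen after their values had been seen.

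Of the core macrophage list 2 of 13 genes were called higher and 1 lower (median -0.06). Its summed share was 4.03, 4.09 and 4.32% of UMIs in members and 5.57, 5.53 and 5.17% in Fcrls-high macrophages, lower in each mouse. Most of that sum was Apoe (-0.31 ± 0.10, adjusted p = 0.0502), which passed the threshold under 9 of 15 alternatives, among them the mouse as a block (adjusted p = 4.27e-05) and leaving out mouse 3 (adjusted p = 0.0115). Fcgr1 (0.05 ± 0.14, adjusted p = 0.910) and the lipid receptor Trem2 (-0.05 ± 0.12, adjusted p = 0.887) were not called. Adgre1 was lower by -0.47 (adjusted p = 0.0206), a call lost without mouse 1 (adjusted p = 0.196) or mouse 3 (adjusted p = 0.101). Tgfbr1, a receptor for TGF-beta, was higher by 0.67 (adjusted p = 0.0149), lost without mouse 1 (adjusted p = 0.109) or mouse 3 (adjusted p = 0.125).

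Of 16 cytokine and chemokine genes, 3 were higher and 5 lower (median -0.08). Tnf rose by 1.0 ± 0.15 (adjusted p = 0.000223), from 117, 138 and 110 CPM in Fcrls-high macrophages to 227, 251 and 195 CPM. Il10, the anti-inflammatory interleukin, fell by 1.03 ± 0.21 (adjusted p = 0.00284), and the monocyte chemoattractants Ccl7 and Ccl12 fell by 1.40 and 1.14. In members without any Fcrls UMI the value of Il10 was -3.52 and that of Ccl7 -2.39. Il1b differed by 0.35 ± 0.11 (adjusted p = 0.0661, and 0.000255 with the mouse as a block). Ccl6 rose by 0.93, and Ccl9 by 0.59 (adjusted p = 0.0319), a call lost under 8 of 15 alternatives, among them leaving out mouse 1 (adjusted p = 0.228) or mouse 2 (adjusted p = 0.100).

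Immediate early genes, which respond within minutes to stimuli including tissue digestion, were lower in 5 of 12 and higher in none (median -0.47). Rhob (-1.14), Fos (-1.0) and Atf3 (-0.81) are examples, and the call of Jun (-1.16) was lost without mouse 1 (adjusted p = 0.0758). Their summed share was 1.18% of UMIs in members and 1.79% in Fcrls-high macrophages. Ribosomal protein genes were higher in 71 of 80 tested (median 0.53), and all 82 listed genes had a summed share of 16.7% against 13%. Both sums moved with the comparison, and their part in the other differences was not tested.

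Of the classical monocyte list, 1 of 4 tested genes was called. Ms4a4c, a membrane-spanning protein of monocytes, was higher by 1.36 (adjusted p = 0.00104), a call lost without mouse 3 (adjusted p = 0.0907). Markers of neurons, satellite glia, fibroblasts, endothelium, B cells and T cells each held less than 0.01% of UMIs in members, with sums of 0.0091% for neurons and 0.0062% for fibroblasts. Neutrophil markers summed to 0.0691, 0.0731 and 0.0740% of UMIs in members and to 0.0763, 0.0840 and 0.361% in Fcrls-high macrophages, with mouse 3 standing apart. Their most abundant gene, the calcium-binding S100a9, held 411, 423 and 459 CPM in members and 445, 503 and 1903 CPM in Fcrls-high macrophages, and the part of these transcripts in other differences was not tested. The neutrophil gene Retnlg was called lower by -1.80 (adjusted p = 0.0429), from 37.3, 33.7 and 40.7 CPM in members and 51.8, 40.8 and 300 CPM in Fcrls-high macrophages. Without mouse 3 the value was -0.25 (adjusted p = 0.725), without mouse 1 the adjusted p was 0.114, and without cells marked as doublets the value was -0.08.

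Compared with monocytes, Ccr2+ Fcrls-low macrophages had fewer transcripts of classical monocyte genes such as Ly6c2 and more of macrophage genes such as Trem2 and Apoe. Since monocytes were gated on Plac8 and below the C1q limit, and members above it, both directions follow the gates in part. Of 4932 genes tested, 873 (17.7%) were higher and 815 (16.5%) lower, with a median over all genes of -0.0014. Without mouse 3 the sum of 1688 fell to 1019.

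Of 11 classical monocyte genes, the 10 that passed the count filter were all called lower. Against Fcrls-high macrophages and cDC2 only 4 and 3 of them passed, so most entered here through monocytes, where they are high, and the count is a description. Ly6c2, the surface protein that defines classical monocytes in mice, held 5.33, 2.49 and 4.52 CPM in members against a mean of 1232 CPM (-7.84 ± 0.24, adjusted p = 4.76e-14). The chitinase-like Chil3 was lower by -5.09 (-3.61 with a C1q limit of 0.3%), fibronectin Fn1 by -5.35 (-7.00 to -4.88 with 1 mouse left out) and Ms4a4c by -2.76. Ly6c1 was lower by a factor of 417 (114 to 3454, counting interval). Coagulation factor F10 had no UMI in members and was at least 131-fold lower, counted against a floor of 3 UMIs over all members. The protease inhibitor Slpi, the glycogen phosphorylase Pygl and the phospholipase Plcb1 were also among the 10 strongest decreases.

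Another 3 of those 10 genes encode proteases or the peroxidase of primary granules, which are made in bone marrow precursors of neutrophils and monocytes. Ctsg was at least 46.0-fold lower, Mpo lower by a log2 value of -7.61 (-9.25 to -6.82 with 1 mouse left out) and Elane by -6.63 (-6.97 to -5.79). In members without any Fcrls UMI the value of Elane was -9.12 and that of Mpo -8.50. These log2 values rest on few UMIs, 1 of Mpo and 4 of Elane in all members together. As a ratio of counts Mpo was lower by a factor of 325 (57.3 to 12913, counting interval). Of the 87 monocytes, 19 held at least 3 UMIs of Mpo, Elane, Prtn3 and Ctsg together, while 0 of 289 members did. Without these 19 cells 722 genes were called higher and 669 lower of 4160 tested, an alternative added after the genes had been seen. There the differences of Fcgr1 and Spp1 from monocytes stood at 0.74 and 2.37 in place of 1.35 and 1.75.

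Core macrophage genes were higher in 11 of 12 and lower in none. Trem2 rose from 36.1, 44.8 and 64.9 CPM in monocytes to 533, 448 and 465 CPM (log2 3.54 ± 0.20, adjusted p = 9.34e-11), and the lipid carrier Apoe by 3.45. The fractalkine receptor Cx3cr1 was higher by 2.73, Adgre1 by 2.63 and Fcgr1 by 1.35. Of 15 resident macrophage genes 12 passed the filter, and 11 of these were higher with a median of 5.36, but several passed it through members only, so the count and median are a description. Cd163 had 222 UMIs in members and 1 in monocytes, a ratio of 91.7 (16.3 to 3637, counting interval), Gas6 had 425 and 1, and Folr2 161 and 1. Mrc1 was higher by 5.55 ± 0.26 (5.37 to 6.16 with 1 mouse left out). The exception was F13a1, the coagulation factor XIII subunit found in monocytes and in resident macrophages, at 144, 128 and 194 CPM in members and 722, 486 and 643 CPM in monocytes (-1.61 ± 0.17, adjusted p = 4.96e-07).

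The strongest increases over monocytes included 9 genes with no UMI in the 87 monocytes. Against a floor of 3 UMIs over all monocytes, the receptor Cd72 was at least 71.8-fold, the small GTPase Rhoc at least 55.2-fold, the leukotriene C4 synthase Ltc4s at least 44.5-fold and the prostaglandin D synthase Hpgds at least 25.9-fold higher. Col14a1, a fibril-associated collagen, was at least 25.5-fold higher and Olfml3, a secreted olfactomedin-like protein, at least 26.7-fold. The remaining genes were Rac3 (at least 23.0-fold), the copper oxidase Cp (at least 22.2-fold) and Crym (at least 19.4-fold), and the surface receptor Slamf9 had 707 UMIs in members and 1 in monocytes.

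Of the S100, galectin and annexin list 10 of 12 genes were lower than in monocytes (median -2.15), including S100a4 (-3.34), S100a6 (-2.94) and Tmsb10 (-2.94). S100a6 stood at 240, 460 and 265 CPM in members, between Fcrls-high macrophages at 69.6, 56.2 and 115 CPM and monocytes at 3167, 3123 and 3408 CPM. Migration genes were lower in 9 of 12 and higher in 1 (median -1.40), with Itgb7, an integrin of gut-homing leukocytes, at -4.50 and Cytip at -2.19. MHC class II genes were higher in 8 of 8 (median 4.08), Cd74 by 4.18.

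Cytokine genes that passed the filter were higher in 11 of 15 and lower in 2 (median 2.38), a description, since Il1a and Il10 held 9 and 6 UMIs in monocytes. Il1b rose by 2.49 ± 0.25, from 927, 1210 and 378 CPM in monocytes to 3423, 3785 and 3109 CPM. Tnf rose by 2.06, the chemokine Ccl4 by 3.38, Ccl7 by 5.00 (4.45 to 5.69 with 1 mouse left out, and 4.04 in members without any Fcrls UMI) and the membrane-bound chemokine Cxcl16 by 4.89. Immediate early genes were higher in 8 of 12 and lower in none, with Egr1 at 4.68 and Jun at 1.28, and their sum was 0.757% of UMIs in monocytes. The part of this sum in the cytokine levels was not tested.

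Compared with cDC2, Ccr2+ Fcrls-low macrophages had more transcripts of macrophage genes and fewer of several dendritic cell and S100 genes, while 7 of 8 MHC class II genes were not called. Of 3494 genes tested, 526 (15.1%) were higher and 403 (11.5%) lower, with a median over all genes of 0.0123. Without mouse 3, which held 18 of the 42 cDC2, the sum of 929 fell to 603. Since cDC2 were gated below the C1q limit and members above it, a difference in macrophage genes follows the gates in part.

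Core macrophage genes were higher in 12 of 12. Apoe rose by 6.67 ± 0.15 (adjusted p = 2.61e-13), Trem2 by 5.15, Cx3cr1 by 3.73, Adgre1 by 3.51 and Fcgr1 by 2.80. Of the 12 resident macrophage genes that passed the filter 11 were higher (median 5.09, or 4.43 with the gene at 0 UMIs in cDC2 set to its bound), again a description, since several passed it through members only. Maf had 600 UMIs in members and 2 in cDC2, a ratio of 70.7 (19.5 to 585, counting interval), and Stab1 had 406 and 3, a ratio of 31.9 (10.8 to 155). With 1 mouse left out Trem2 ranged from 4.43 to 6.01, Stab1 from 4.22 to 6.01 and Cx3cr1 from 3.36 to 4.83. With members of at least 1% C1q, a limit that also moves cells into the cDC2, Apoe stood at 4.28, Trem2 at 3.35, Adgre1 at 2.81 and Cx3cr1 at 2.48. Under that limit the log2 values of Maf and Stab1 were 3.62 and 3.69, in place of 6.23 and 5.09. Mrc1 rose by 1.57 and the endocytic adaptor Dab2 by 1.09. Cd163, at 29.3, 129 and 71.5 CPM in cDC2, was not called (0.50 ± 0.33, adjusted p = 0.307), and the groups overlapped.

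All of the 10 strongest increases had no UMI in cDC2. Lilra5, an activating immunoglobulin-like receptor, was at least 41.8-fold higher, the scavenger receptor Msr1 at least 17.2-fold, the organic anion transporter Slco2b1 at least 15.2-fold, Hpgds at least 14.8-fold and Col14a1 at least 14.5-fold, each against a floor of 3 UMIs over all cDC2. These bounds hold for the main gate only. With members of at least 1% C1q, which also moves cells into the cDC2, the fitted log2 values were lower. Lilra5 then stood at 4.74, Msr1 at 4.95, Slco2b1 at 4.23, Hpgds at 2.90 and Col14a1 at 3.34. The RNA sensor Tlr7, Folr2 and Serpinf1 were each at least 12.6-fold higher, Sash1 at least 15.2-fold and Il10 at least 11.2-fold, again for the main gate. With members of at least 1% C1q, Serpinf1 stood at a log2 value of 3.93 and Sash1 at 3.76. In females the log2 value of Serpinf1 against cDC2 was 2.80.

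Of 15 dendritic cell genes 7 passed the filter, some of them through cDC2, where they are high, and as a description 4 of these were lower and 1 higher. The integrin Itgax (CD11c) was lower by -4.34 ± 0.52 (adjusted p = 1.62e-05), the peptidase Dpp4 by -3.82, and the lectins Clec10a and Mgl2 by -3.05 and -2.25, while the transcription factor Irf8 was higher by 2.56. Of the strongest decreases, the aspartic protease Napsa held 14.9 CPM in members and 834 CPM in cDC2 (-5.54 ± 0.23, adjusted p = 3.50e-10), Itgb7 was lower by -5.38, and the leukotriene B4 receptor Ltb4r1 by -6.05. Wnt11 had no UMI in members and was at least 62.2-fold lower, Upb1 was lower by a factor of 106 (27.9 to 900), and Fcor and P2ry10 each by 52.3 (16.6 to 265). The adhesion molecules L1cam and Nectin1 were lower by -4.48 and -4.43. Retnla, a resistin-like protein seen in recently arrived monocyte-derived cells, was lower by -4.49, with 1289, 60.9 and 126 CPM in the 3 cDC2 sums, so mouse 1 stood far from both other mice. Without mouse 1 the value was -1.96. Ear2, which shares that list, was lower by -3.48, and by -2.36 without mouse 2 or -5.22 without mouse 3. With 1 mouse left out Ltb4r1 ranged from -7.41 to -5.61, Itgax from -5.78 to -3.86, Clec10a from -3.89 to -2.51, Nectin1 from -5.56 to -3.95 and Irf8 from 2.12 to 3.51. Without cells marked as doublets Dpp4 stood at -5.19 and Ltb4r1 at -7.09, and in members without any Fcrls UMI Ear2 stood at -2.50.

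Of the 8 tested MHC class II genes, 7 lay between -0.24 and 0.12 and were not called. All 9 genes of the list together held 8.83% of UMIs in cDC2. H2-DMb2 was lower by -0.88 (adjusted p = 0.00523), lost without mouse 3 (adjusted p = 0.116). The S100, galectin and annexin list was lower in 10 of 12 (median -2.46), with S100a4 at -3.50, S100a6 at -3.01 and Vim at -1.01, and migration genes were lower in 6 of 11 and higher in none (median -0.67), with Cytip at -2.15. Of the cytokine genes that passed the filter 11 of 14 were higher and 1 lower (median 3.40, or 3.22 with Il10, at 0 UMIs in cDC2, set to its bound), a description, since Il10 and Il1a, at 143 and 237 UMIs in members and 0 and 1 in cDC2, passed through members. Among them Ccl7 was at 5.22 (4.22 in members without any Fcrls UMI), Il1b at 1.49 and Tnf at 1.04, where the call of Tnf was lost with members of at least 1% C1q (0.78, adjusted p = 0.0613). Immediate early genes were higher in 8 of 12 and lower in none (median 0.88), with a sum of 1.18% of UMIs in members and 0.738% in cDC2, and their part in the cytokine levels was not tested. Genes of NF-kB feedback, a list that holds Tnip3, were higher in 3 and lower in 3 of 7. Against monocytes 6 of 9 were higher and none lower (median 0.60). Against Fcrls-high macrophages 1 of 9 was called, Tnip3 itself, and in females 1 was higher and 2 lower of 9.

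**Figure D3:**
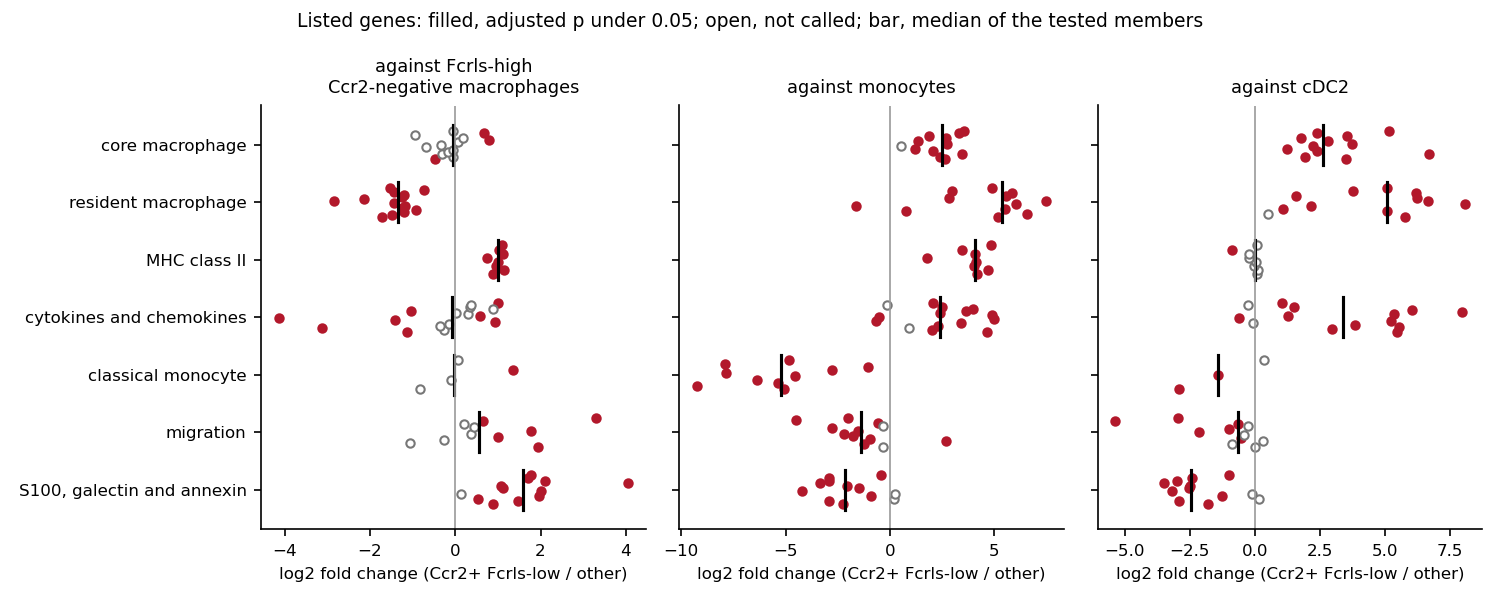
Log2 fold change of the tested genes of selected lists in Ccr2+ Fcrls-low macrophages against Fcrls-high Ccr2-negative macrophages, monocytes and cDC2. The lists are core macrophage, resident macrophage, MHC class II, cytokines and chemokines, classical monocyte, migration, and S100, galectin and annexin genes. Each point is a gene, filled where called and open where not, and the bar is the median of the list. Resident macrophage genes have a median of -1.34 against Fcrls-high macrophages and of 5.36 against monocytes, and the S100, galectin and annexin genes change sign in the opposite sense (1.58 and -2.15).

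The female animals of the lane had played no part in the choice of members or markers, and the same limits were applied to their 1073 cells. They kept 120 cells, 43, 37 and 40 per mouse, which were 20.4, 20.9 and 18.0% of macrophages (mean 19.8% ± 1.54, SD, n = 3). Against the 244 Fcrls-high macrophages of the same mice, 175 of 4365 genes (4.01%) were higher and 147 (3.37%) lower. Without female mouse 1, 2 or 3 the sum of 322 came to 165, 163 or 162.

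All 6 markers outside the gate were called higher in females. Tnip3 held 301, 68.0 and 299 CPM in members and 6.44, 3.85 and 15 CPM in Fcrls-high macrophages (4.65 ± 0.48, adjusted p = 2.75e-06). Female mouse 2 was lower than both other females and still above all Fcrls-high macrophages. Lsp1 held 155, 83.1 and 122 CPM against 4.83, 15.4 and 8.74 CPM (3.74 ± 0.34, adjusted p = 7.63e-07, 3.21 to 4.34 with 1 mouse left out). Spp1 held 99.5, 125 and 265 CPM against 12.9, 50.1 and 15 CPM (2.79 ± 0.40, adjusted p = 0.000112, 1.93 to 3.71 with 1 mouse left out). None of these groups overlapped. Cd52 rose by 1.99 ± 0.16 (adjusted p = 1.96e-07), Lgals3 by 2.12 ± 0.35 (adjusted p = 0.00063) and H2-Eb1 by 0.85 ± 0.08 (adjusted p = 1.16e-06).

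In the female comparison 13 of 13 resident macrophage genes were lower and 8 of 8 MHC class II genes higher. Of the S100, galectin and annexin list 8 of 11 were higher, of ribosomal genes 59 of 80, and of immediate early genes 5 of 12 were lower. Ccl7 was lower by -3.24 ± 0.21 (adjusted p = 6.16e-09), Ccl8 by -4.31 ± 0.76 (adjusted p = 0.000957, -5.59 to -3.59 with 1 mouse left out) and Mrc1 by -1.02. Cd163 was lower by -0.95 ± 0.21 (adjusted p = 0.00651), with 79.0, 170 and 136 CPM in members and 279, 266 and 216 CPM in Fcrls-high macrophages, and lost its call without female mouse 1 (-0.59, adjusted p = 0.151). Tnf was higher by 0.80 (adjusted p = 0.0151), lost without female mouse 1 (adjusted p = 0.142) or female mouse 3 (adjusted p = 0.203).

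Of the 622 genes called in males 519 were also tested in females, and 514 of these (99.0%) had the same direction. Of the 519, 254 (48.9%) were called in females in that direction, which is 78.9% of the 322 female calls, and 0 were called in the other direction. The female cells ran in the same lane as the male cells, so the repeat is one over animals and not over libraries.

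**Figure D4:**
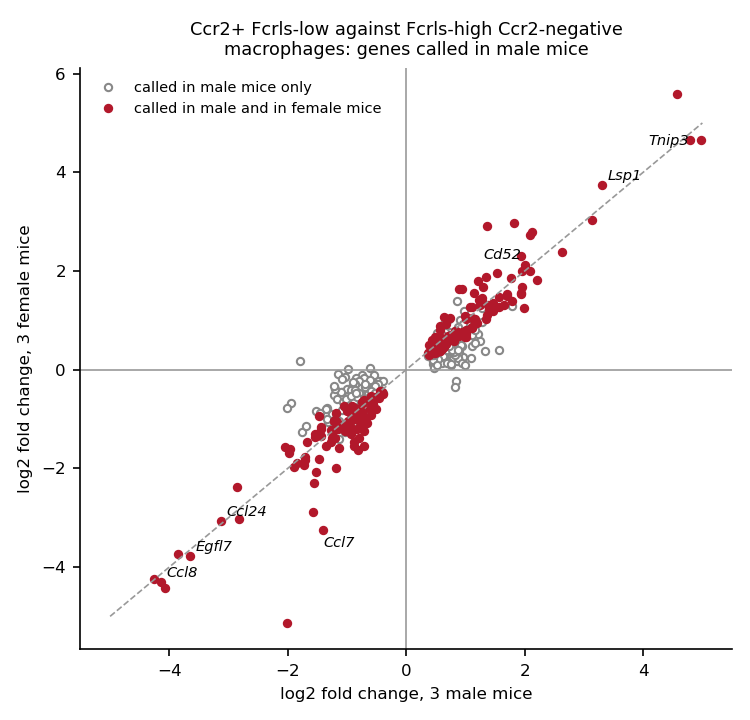
Log2 fold change of Ccr2+ Fcrls-low against Fcrls-high Ccr2-negative macrophages in male mice (horizontal axis) and female mice (vertical axis). Each point is a gene called in males and also tested in females, so genes not called in males are not drawn. Filled points were called in females too. Tnip3, Lsp1, Cd52, Ccl8, Ccl24, Ccl7 and Egfl7 are named, with Tnip3 at 4.79 in males and 4.65 in females.

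In a comparison added after the data had been seen, female members were set against female cDC2. There 340 of 2687 genes (12.7%) were higher and 318 (11.8%) lower. Tnip3 (-1.81, adjusted p = 0.000924), Lsp1 (-3.49), Cd52 (-1.54) and Lgals3 (-2.93) were lower in members. H2-Eb1 (0.09, adjusted p = 0.714) and Spp1 (0.71, adjusted p = 0.277) were not called, and the sign of Spp1 was opposite to that in males. Female monocytes numbered 17 and were not tested.

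Female and male members were also compared with each other, likewise added later. Of 3696 genes 4 (0.108%) were called. Xist was higher in females, and the Y-linked Ddx3y and Eif2s3y were lower. The other gene was Ccl7, with 161, 110 and 211 CPM in females and 779, 328 and 439 CPM in males (-1.63 ± 0.27, adjusted p = 0.00414, without overlap). Fcrls-high macrophages held 2050, 1310 and 1406 CPM of Ccl7 in females and 1422, 1257 and 1704 CPM in males, which overlapped. In a test of whether the difference between both macrophage classes depended on sex, edgeR called 0 of 6069 genes, with 209 at an unadjusted p under 0.05, and Ccl7 had a value of -1.82 ± 0.36 (adjusted p = 0.276). DESeq2 was not run on this test, and no fit with the mouse as a block is given for it.

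Members varied among themselves. Tnip3 was seen with at least 1 UMI in 36.0% of members (30.4 to 41.8%) and in 4.79% of Fcrls-high macrophages, and after every cell was thinned to 2000 UMIs the shares were 20.2 and 0.9%. B cells, which should lack it, held no Tnip3 UMI, but their median depth was 3407 UMIs against 8341. Thinning left out 3 members. Cd163 was seen in 34.9% of members (29.5 to 40.8%) and 1.83% of B cells, or 17.3 and 0% after thinning, and Mrc1 in 96.9% and 6.71%, or 62.5 and 2.20% after thinning. In mice 1, 2 and 3 Tnip3 was seen in 37.2, 36.2 and 35.5% of members and Cd163 in 46.5, 29.5 and 35.5%. Lsp1 and Cd52 are also expressed by B cells, so no background share was set beside them. They were seen in 52.9 and 91.3% of members and in 11 and 64.9% of Fcrls-high macrophages, and after thinning in 22.1 and 66.9% against 2.67 and 32.0%. Lgals3 was seen in 35.6% and Spp1 in 34.6% of members and each in 9.76% of B cells, and after thinning the shares were 11.4 and 15.4% in members and 5.4 and 6.5% in B cells.

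A few cells held much of some transcripts. The 15 cells with most Tnip3 UMIs held 48.8% of all Tnip3 UMIs of members, and the corresponding shares were 49.4% for Spp1, 30.3% for Lsp1, 22.9% for Cd52 and 10.4% for H2-Eb1. Tnip3 stood at 295 CPM in members without any Fcrls UMI and at 279 CPM in those with at least 6 Ccr2 UMIs, and Cd163 stood at 69.0 CPM in members without Fcrls and 127 CPM in those with 2. Cd209a UMIs were found in 28 members, and 15 cells held 88.7% of them. The 4 members with the lowest C1q share had 616 CPM of Cd209a and 1174 CPM of Tnip3, where cDC2 averaged 1819 and 678 CPM. Scrublet, a doublet caller, marked 2 of the 289 members.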

How the data were processed

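The authors deposited raw UMI counts of 2668 male cells (16819 gene symbols) and a Cell Ranger 3.1.0 matrix of raw UMI and hashtag counts of 4395 barcodes (31053 genes, mm10). They kept cells with over 200 and under 5000 genes and under 5% mitochondrial UMIs and assigned hashtags with HTODemux. Their steps on the larger matrix (Seurat 5.3.0, R 4.3.3) left 3741 single-hashtag cells, among them all 2668 barcodes of the smaller one, with 0 entries differing. Hashtag doublets were thereby removed, and Scrublet marked 51 of the 4395 barcodes (1.16%), which were kept except in an alternative. Depth per male mouse was 4239463 to 13508078 UMIs.

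Members, comparison classes, gene lists and markers were chosen with earlier results of these data known. UMIs were summed per mouse and class and tested with edgeR 4.0.16 (TMM, filterByExpr, quasi-likelihood, Benjamini-Hochberg threshold 0.05), with only the classes compared in a fit and the genes of the gates left out of the test. Levels are CPM of these sums without TMM factors. Folds are log2 values with standard errors. Genes were named as the 10 largest changes in each direction among calls with the same sign in 3 mice and a mean of at least 50 CPM in the higher class, the 7 markers, and up to 4 called members of each list, while exceptions are marked or bear on a check of cell type. Clusters came from 2000 variable features, 15 principal components and a resolution of 0.5. The sums are paired by animal, since each hashtag marks 1 mouse. Deviations from class means correlated within a mouse at 0.0235 to 0.166 against Fcrls-high macrophages, 0.0632 to 0.112 against monocytes and 0.0388 to 0.0777 against cDC2. Alternatives were the mouse as a block, DESeq2 1.42.0, RLE factors, no count filter, other gate limits, a range of 5000 to 20000 UMIs, hashtags by highest count and leaving out each mouse. Promoters came from a local set of RefSeq promoter windows (GRCm38.p6), and the set used here held no window for Lsp1 and Cd52. Some genes that the naming rule would name are not reported here.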

Additional observations from a re-analysis of the deposited data

Results flagged for a closer look

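Cx3cr1, the fractalkine receptor, had fitted values of opposite sign in the sexes when Ccr2+ Fcrls-low macrophages were set against Fcrls-high macrophages. In the main edgeR test it was called in neither sex. It was lower in all 3 male mice (432, 509 and 410 CPM against 627, 714 and 514 CPM, log2 -0.33 ± 0.14, adjusted p = 0.196 in edgeR, and 0.0223 with the mouse as a block) and higher in all 3 female mice (565, 793 and 684 CPM against 533, 713 and 653 CPM, log2 0.159). The test of the difference between the sexes gave 0.50 ± 0.21 with an unadjusted p of 0.0263 in edgeR. Its adjusted p was 0.99963 over 6069 genes, so it did not pass the correction. No fit with the mouse as a block is given for this test.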

How the results depend on the processing

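With the mouse as a block, which the pairing by animal allows, 901 genes were called against Fcrls-high macrophages, 1679 against monocytes, 918 against cDC2 and 422 against female Fcrls-high macrophages, in place of 622, 1688, 929 and 322. Of the 193 gene results fitted with the block, which leave out the female cDC2 comparison, it changed the calls of Il1b, Cx3cr1 and Apoe against Fcrls-high macrophages and no other. DESeq2 called 394 genes (251 higher, 143 lower) against Fcrls-high macrophages. Leaving out 1 mouse gave 349 to 385 calls there, 1019 to 1529 against monocytes, 603 to 903 against cDC2 and 162 to 165 in females.

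The mean share of macrophages was 16.5% with at least 3 Ccr2 UMIs and 9.69% with 0 Fcrls UMIs in place of 20.6%. The mean share of all cells was 4.93% with 0 Fcrls UMIs and 13.3% with cells thinned to 5000 UMIs in place of 10.8%.

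Of 199 gene results, 187 were called, and 2746 of 2803 values under alternatives kept direction and side of the threshold. Another 42, of 17 results, lost the call, and 12 gained one, 9 of them for Apoe. DESeq2 ended the calls of Cd38 (adjusted p = 0.442), Pla2g2d (0.0531), Fos (0.0577) and Jun (0.157) among others. Values near 0 changed sign in 3 cases, Fcgr1 against Fcrls-high macrophages (-0.011 to 0.084 with a mouse left out, -0.0042 with 1 Ccr2 UMI) and H2-Eb1 against cDC2 (-0.015 to 0.19 with a mouse left out). The cause was not tested. With 3 mice a group and 42 cDC2 and 87 monocytes, low transcripts were not resolved, and all animals ran in 1 lane.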
